A study of Mus musculus with 2 samples.

Results

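The heavy chain constant genes of mouse immunoglobulin and Jchain were described in B cells sorted from neonatal and adult hearts. The 9 genes are Ighm, Ighd, Ighg3, Ighg1, Ighg2b, Ighg2c, Ighe, Igha and Jchain, out of 31053 genes counted. They were chosen by name, and their levels were read in droplets with at least 2000 gene UMIs (unique molecular identifiers, 1 per captured transcript), at most 10% mitochondrial UMIs and at least 1 UMI of Cd79a, a chain of the B cell receptor. This kept 2077 of 779448 neonatal and 3611 of 983353 adult droplets with any gene UMI. The mice were unstimulated wild-type C57BL6/J animals. The neonatal library came from 6 mice of 2 weeks, males and females together, and the adult library from 6 males of 8 weeks. Each pool was made in 2 tubes of 3 hearts, digested alike and sorted on the same day for live B cells. With 1 library for each age, age, pool, sex and library cannot be told apart and no test between ages was possible. Every 95% interval given covers counting error only.

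A newly made B cell joins its rearranged variable region to the Ighm exons and places IgM on its surface. As it matures it also makes IgD, because Ighm and Ighd lie in 1 long primary transcript that can be spliced either way. Class switch recombination later deletes Ighm, Ighd and the DNA up to a downstream constant gene, so that the cell makes IgG, IgE or IgA instead. Jchain encodes the joining chain that links IgM pentamers and IgA dimers, and antibody-secreting cells make it in large amounts. Here the 6 genes downstream of Ighd are called switched genes by their position. A UMI of one of them does not show that the cell had switched. A cell is said to carry a gene at 10 or more of its UMIs.

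In GRCm38 (mm10), the 8 constant genes lie on the minus strand of chromosome 12 in the order of the names above. Ighm spans chr12:113418558-113422730 and Ighd chr12:113406604-113416324, starting 6.4 kb downstream. The last gene of the row, Igha, spans chr12:113254830-113260236. Jchain lies elsewhere, on the minus strand at chr5:88519809-88527891. Droplet reads come from the 3′ ends of transcripts. The ends of the coding sequences are shown to compare genes and forms, but the annotated transcripts run on past them. For Ighm they run on for 129 bases in the secreted and 271 in the membrane form. Which genes and forms the reads could tell apart was not tested. For Ighm, the annotated secreted and membrane forms share their first 1305 coding bases. The junction is shown for both, 5′ to 3′, with 20 shared bases in lower case and the first 40 bases of the form's own end in capitals.
Ighm, secreted: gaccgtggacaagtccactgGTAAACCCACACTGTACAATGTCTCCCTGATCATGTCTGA
Ighm, membrane: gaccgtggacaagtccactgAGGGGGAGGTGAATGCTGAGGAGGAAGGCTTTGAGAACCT
The tables add both forms into 1 Ighm count, so secreted and surface IgM were not separated.

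The 4 IgG genes are close relatives, and reads could be lost or moved between them. The coding sequences of Ighg2b and Ighg2c were 86.3% identical, and the other IgG pairs were between 76.1 and 78.7% identical. Of the 1276 runs of 50 bases in the annotated transcripts of Ighg2c, 70 (5.49%) also occurred in Ighg2b. Ighg3 and Ighg2b shared 39 such runs, and Ighg1 shared 10 with each of them. The annotated secreted transcripts run on for 93 to 107 bases past the coding sequence. The last 60 coding bases of the secreted forms are shown 5′ to 3′, with the 29 positions at which the 4 genes are not all the same in capitals.
Ighg3: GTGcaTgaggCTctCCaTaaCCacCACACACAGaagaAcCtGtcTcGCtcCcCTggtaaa
Ighg1: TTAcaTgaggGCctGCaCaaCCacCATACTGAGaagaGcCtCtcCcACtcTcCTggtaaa
Ighg2b: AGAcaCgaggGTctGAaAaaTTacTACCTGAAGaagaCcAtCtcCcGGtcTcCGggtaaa
Ighg2c: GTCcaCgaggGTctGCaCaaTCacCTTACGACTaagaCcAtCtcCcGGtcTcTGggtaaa
The annotation also treats the membrane forms unequally. Beyond the coding sequence, the membrane transcript extends 1218 bases in Ighg3, 1304 in Ighg1 and 1352 in Ighg2b, but only 3 bases in Ighg2c and Ighe. Reads from a longer end of the last 2 genes would not be counted with these gene models, so their levels in cells with surface IgG2c or IgE are uncertain.

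The kept cells of the neonatal library held 16403180 gene UMIs and those of the adult library 34623240, with medians of 6000 and 6131 UMIs in a cell. All 7 B cell marker genes were present in both libraries, with a summed level of 16909 and 19366 counts per 1e6 gene UMIs (CPM). Macrophage markers summed to 91.7 CPM in the neonatal and 17.0 CPM in the adult library, neutrophil markers to 27.1 and 0.0289 CPM and T cell markers to 16.5 and 21.5 CPM. At least 500 UMIs were found in both libraries at 110 barcodes, which are cells of the neonatal library in 61 cases and of the adult library in 45. These were deep cells, with a median of 30537 UMIs in the neonatal library against 656 at the same barcodes in the adult library, and 58990 against 612 for the adult cells. They held 22.03% of the neonatal Ighm UMIs, 95.9% of the neonatal Jchain UMIs and 47.2% of the adult Igha UMIs, so values without them are given where they matter. The part of these shared barcodes, and of the other cell types, in the results below was not tested.

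**Figure D1:**
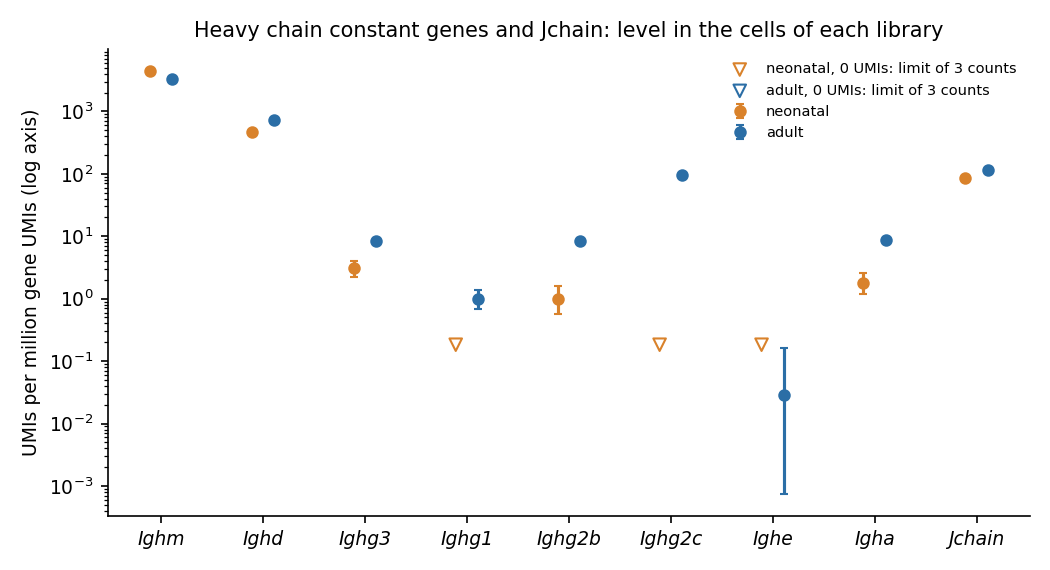
Level of the 9 genes in CPM (log axis), summed over the cells of the neonatal (orange) and adult (blue) library, with exact Poisson 95% intervals of the counts. Open triangles mark genes with 0 UMIs at the level of 3 counts, 0.183 CPM in the neonatal library. Ighm is the highest gene in both libraries and the only one lower in the adult library.

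Ighm was the most abundant of the 9 genes in both libraries and Ighd the second, as counts of 3′ tags that were not scaled to transcript length. The level of Ighm was 4482 CPM in the neonatal and 3245 CPM in the adult library, a log2 ratio of -0.47 (95% interval -0.48 to -0.45). Ighd ran the other way, with 473 CPM in the neonatal and 714 CPM in the adult library and a log2 ratio of 0.60 (0.56 to 0.63). Without the shared barcodes these ratios were -0.32 and 0.52. Across all 10703 genes with at least 50 UMIs, the median log2 ratio was -0.13, and 7.82% were at least 1.5-fold higher and 12.2% at least 1.5-fold lower in the adult library. 7 of the 9 genes had enough UMIs to be counted in this way. Of these, 5 were at least 1.5-fold higher in the adult library (Ighd, Ighg3, Ighg2b, Ighg2c and Igha) and none was lower by that much. The fold of Ighd was 1.51 (1.47 to 1.55), at the edge of the limit, and Ighm and Jchain did not pass it. Ighd fell short of 1.5-fold without the shared barcodes, without the deepest droplets (log2 ratio 0.49) and with another UMI minimum (0.46). Ighm was at least 1.5-fold lower as a mean over cells (-0.59) and in cells of 4000 to 6000 UMIs (-0.81). Ighg1 and Ighe had fewer than 50 UMIs.

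Nearly every cell had Ighm transcripts. With each cell reduced at random to 2000 UMIs, so that depth was equal, 99.2% of neonatal cells (98.7 to 99.5%) and 97.3% of adult cells (96.7 to 97.8%) had an Ighm UMI. The share with an Ighd UMI was 53.5% (51.4 to 55.7%) among neonatal and 72.2% (70.7 to 73.7%) among adult cells. At full depth the Ighd shares were 81.8 and 92.8%. Droplets without B cell genes (no UMI of Cd79a, Cd79b or Ms4a1, among others) gave the background. Of 10 such neonatal droplets (median 6179 UMIs), 6 had an Ighm UMI, none with more than 2, and 1 had an Ighd UMI. The 2 such adult droplets, at a median of 7839.5 UMIs, had neither. A single UMI of Ighm was therefore close to background, while the median cell held 24 Ighm UMIs among neonatal and 15 among adult cells, and 3 and 5 UMIs of Ighd. In nearly empty droplets (ranks 45000 to 90000 by UMIs), free RNA held 3856 and 2985 CPM of Ighm, somewhat below the cells. It held 710 and 882 CPM of Ighd, above the 473 and 714 CPM of the cells. These droplets had a mean of only 55.9 and 92.0 gene UMIs. An Ighm UMI was found in 18.96 and 23.4% of them, and an Ighd UMI in 3.84 and 7.69%.

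**Figure D2:**
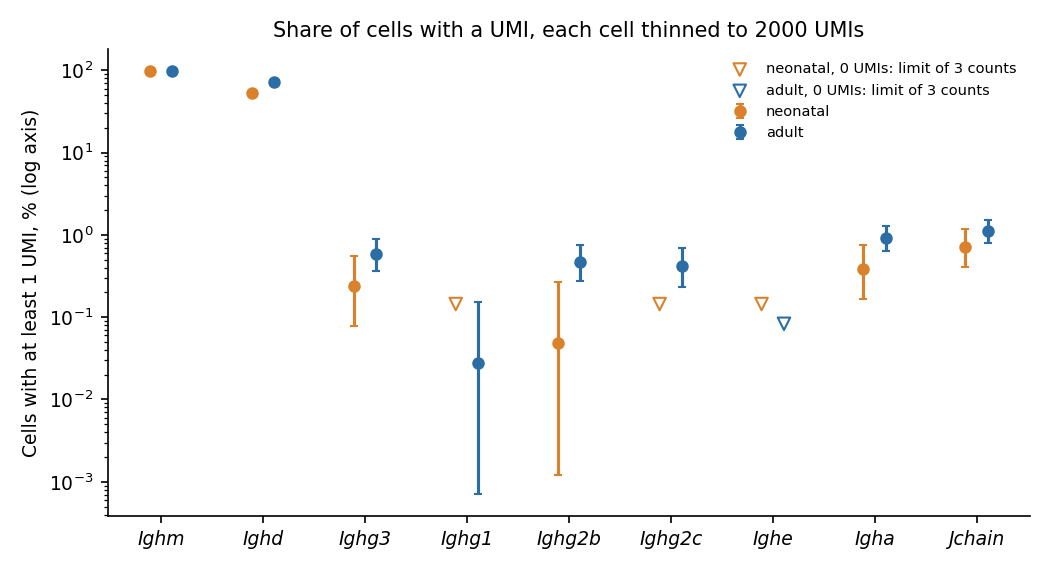
Share of cells with at least 1 UMI of each gene (percent, log axis) after each cell was thinned to 2000 UMIs, with exact binomial 95% intervals, for 2077 neonatal (orange) and 3611 adult (blue) cells. Open triangles mark genes found in no cell, at the limit that a count of 0 allows (0.144% of neonatal and 0.0831% of adult cells). Ighm and Ighd are in most cells, while each switched gene is in fewer than 1% of cells.

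The balance between the 2 genes of the shared transcript also differed. Ighd made up 9.54% (9.34 to 9.74%) of the Ighm and Ighd UMIs of neonatal cells and 18.0% (17.8 to 18.2%) of those of adult cells. Over single cells with at least 10 UMIs of the pair, the median Ighd part was 8.33% in 2023 neonatal cells and 23.5% in 3219 adult cells. An Ighd part under 10% was found in 54.7% of these neonatal cells and 22.7% of these adult cells. The distributions overlapped over most of their range, and 2.13% of neonatal and 8.33% of adult cells had an Ighd part of 50% or more.

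**Figure D3:**
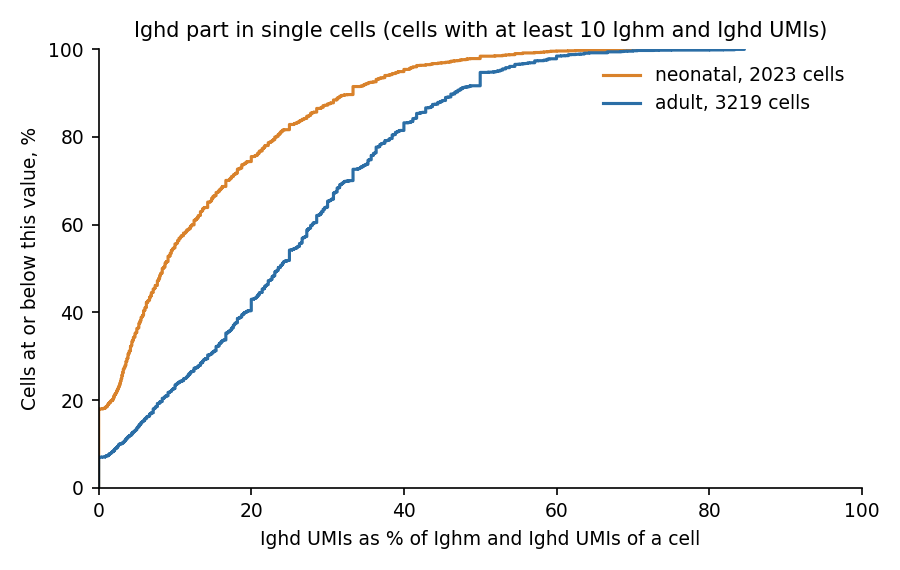
Cumulative share of cells (percent) against the Ighd part of the Ighm and Ighd UMIs of a cell (percent), for 2023 neonatal (orange) and 3219 adult (blue) cells with at least 10 UMIs of the pair. The neonatal curve lies above the adult curve over most of the range, with 54.7% against 22.7% of cells under an Ighd part of 10%.

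Most cells held transcripts of both genes. At 2000 UMIs per cell, 53.0% of neonatal and 70.1% of adult cells had a UMI of Ighm and of Ighd, and 46.2 and 27.2% had Ighm alone. Ighd alone was found in 11 neonatal cells (0.530%) and 78 adult cells (2.16%). More Ighd than Ighm UMIs were counted in 3.95% (3.15 to 4.88%) of neonatal and 11.4% (10.4 to 12.5%) of adult cells. At full depth, 39 neonatal and 241 adult cells held more Ighd UMIs than those of any other heavy chain gene.

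Depth moved with the balance within each library, so it was also read in cells of like depth. Among cells of 2000 to 4000 UMIs, the Ighd part was 8.31% (124 cells) among neonatal and 28.7% (728 cells) among adult cells. From 4000 to 6000 UMIs it was 12.1% (914 cells) and 27.8% (1048 cells), and from 6000 to 10000 UMIs it was 13.4% (664 cells) and 24.7% (791 cells). In the deepest cells, of at least 10000 UMIs, it was 5.94% (375 cells) and 13.8% (1044 cells). All cells that carried Jchain were in this group. They held 7141 of its 34302 neonatal and 13401 of its 79058 adult Ighm UMIs. The adult value was the higher one at every depth, and the smallest gap between the libraries was in the deepest cells.

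The Ighd part varied with other B cell genes in the same direction at both ages. Cr2 (CD21) and Fcer2a (CD23) mark mature follicular B cells. In cells with a UMI of either, the Ighd part was 16.2% (602 cells) among neonatal and 24.1% (1860 cells) among adult cells. Cells with neither had 7.63% (1475 cells) and 13.5% (1751 cells). Cells with a UMI of Zfp318, a nuclear factor needed for IgD expression, had an Ighd part of 16.3% (340 cells) and 24.1% (865 cells), against 8.58 and 16.3% in cells without one. In summed UMIs, the neonatal cells with a Cr2 or Fcer2a UMI thus lay between the adult cells without one and those with one. Over single cells with at least 10 UMIs of the pair, the order was not the same. The median of these neonatal cells was 16.1%, below the 18.75% of the adult cells with neither.

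Cells with B1 genes had low Ighd at both ages. The Ighd part was 4.32% in the 57 neonatal cells and 4.43% in the 122 adult cells that had UMIs of at least 2 of 8 B1 genes, among them Cd5 and Bhlhe41. Cells with no B1 gene UMI had 10.4 and 21.7%. The B1 gene cells were deeper, with medians of 14927 and 15298 UMIs against 5865 and 5394, although the groups were set in thinned cells. Cells of at least 10000 UMIs of any kind, the Jchain carriers among them, had an Ighd part of 5.94 and 13.8%. For Vpreb3, a gene of precursor and immature B cells, the values differed between the libraries and with the way cells were weighted. In summed UMIs, neonatal cells with and without a Vpreb3 UMI had an Ighd part of 9.57 and 9.52%, while adult cells had 23.8 and 16.3%. Over single cells the medians with and without it were 6.86 and 10.5% in the neonatal library, and 26.7 and 22.2% for adult cells. Grouped at full depth, neonatal cells with a Y-linked UMI and no Xist UMI had an Ighd part of 8.87%. Neonatal cells with Xist alone had 10.8%. Over single cells the order was reversed, with medians of 8.51% for the Y-linked and 7.89% for the Xist group. Both groups lay below the all-male adult library in summed UMIs and in the median.

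The genes most like Ighm and Ighd over single cells followed them weakly. Over 2201 genes found in at least 10% of thinned cells, Cd79b, Iglc1, Ly6d, Ms4a1 and Pafah1b3 ranked highest with Ighm, by the mean over the libraries. Cd79b led with a Pearson r of 0.30 in neonatal and 0.14 in adult cells, and Ms4a1 had 0.34 and 0.06. With Ighd, Mef2c, H2-Aa, Fcer2a, H2-Ab1 and Satb1 ranked highest, and Mef2c led with 0.25 and 0.19. Ighm and Ighd themselves had r values of -0.19 and -0.11. The cells of a library share its free RNA, and values of this size in sparse counts are given as a description only.

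Switched genes were rare at both ages. At 2000 UMIs per cell, 14 of 2077 neonatal cells (0.674%, 0.369 to 1.13%) and 81 of 3611 adult cells (2.24%, 1.79 to 2.78%) had a UMI of any of the 6. At full depth there were 48 such neonatal cells (2.31%) and 315 adult cells (8.72%), most of them with 1 UMI. Only 1 neonatal cell (0.0481%) and 20 adult cells (0.554%) carried a switched gene at 10 or more UMIs. None of the 10 neonatal or 2 adult droplets without B cell genes had a switched UMI. At shares this low so few droplets would most likely hold none in any case, so they cannot give the background of the switched genes.

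Ighg3, the first switched gene downstream of Ighd, had 50 UMIs in neonatal cells (3.05 CPM), spread over 18 cells with at most 7 UMIs each. That was the highest sum of the switched genes there, but Igha was found in more cells, and without the shared barcodes both had 29 UMIs. The adult library had 291 UMIs (8.40 CPM) in 99 cells, of which 7 carried the gene, with 38 UMIs in the highest. The log2 ratio was 1.46 (1.03 to 1.93) and 0.42 (-0.06 to 0.91) without the carriers. Without the shared barcodes 29 neonatal and 246 adult UMIs were left, a log2 ratio of 1.93.

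Ighg2b had 16 UMIs (0.975 CPM) in 3 neonatal cells and 293 UMIs (8.46 CPM) in 58 adult cells, a log2 ratio of 3.12 (2.39 to 3.94). One neonatal cell at a shared barcode, with 42237 UMIs in all, held 13 of the 16. Without the shared barcodes 3 neonatal and 259 adult UMIs were left, a log2 ratio of 5.28. The adult UMIs were spread more widely, with 9 carriers and at most 31 UMIs in a cell.

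Ighg1 and Ighg2c had 0 UMIs in the neonatal cells, which allows up to 0.144% of cells with a UMI. Ighg1 had 34 adult UMIs in 2 cells, of 20 and 14. That is 0.0554% of adult cells, within the share that 0 neonatal cells allow, so no fold is given. Ighg2c had 3340 adult UMIs (96.5 CPM), but 3271 of them lay in a single cell, so no fold is given for the sum. The other 56 adult cells with Ighg2c had 69 UMIs, and without the single cell the adult level was 1.99 CPM. Free RNA in nearly empty adult droplets held 58.2 CPM of Ighg2c, and 19.3 UMIs would be found if each cell held as many as a nearly empty droplet. Ighe was seen as 1 UMI in 1 adult cell and in no neonatal cell, too little for a fold.

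Igha, the last gene of the locus, was spread mostly as single UMIs. The neonatal library had 29 UMIs (1.77 CPM) in 27 cells, 25 of them with 1 UMI. In the adult library 301 UMIs (8.69 CPM) lay in 149 cells, 139 of them with 1 UMI, and 1 cell at a shared barcode held 131. The log2 ratio was 2.30 (1.75 to 2.90), and 1.30 without the shared barcodes. Cells with at least 1 but fewer than 10 Igha UMIs were deep, at a median of 9144 UMIs among neonatal and 11003 among adult cells. Free RNA held Igha at 9.14 and 17.4 CPM, above the level in the cells of either library. These cells held 29 neonatal and 156 adult Igha UMIs, where 1.06 and 5.78 would be found if every cell of the library held as many as a nearly empty droplet. The source of the single UMIs was not tested.

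**Figure D4:**
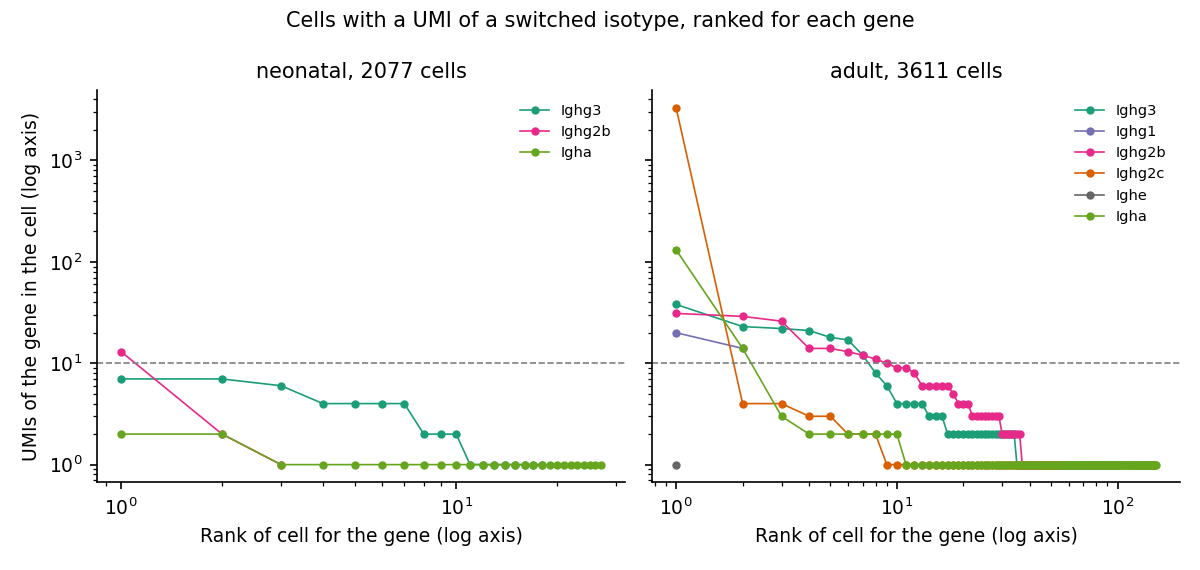
UMIs of each switched gene in a cell (log axis) against the rank of the cell for that gene (log axis), for 2077 neonatal and 3611 adult cells. Each point is 1 cell, colours mark genes, and the dashed line is at 10 UMIs. The neonatal library has 1 cell over the line (Ighg2b, 13 UMIs), and in the adult library 1 cell holds 3271 UMIs of Ighg2c.

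Only adult cells were led by a switched gene, meaning that its UMIs exceeded those of every other heavy chain gene. There were 12 such adult cells (0.332%, 0.172 to 0.580%) and 0 of 2077 neonatal cells, which allows a share of up to 0.144% by 3 counts. The exact neonatal interval, 0 to 0.177%, overlapped the adult one. Ighg2b led 7, Ighg3 led 3 and Ighg2c led 2. The leading gene had 10 or more UMIs in 8 of the cells, and 9, 8, 6 and 3 UMIs in the others. The lead of 3 UMIs was of Ighg2c, in a cell of 24164 UMIs. Among the 12, 10 held at most 3 Ighm UMIs and 11 no Jchain. For example, a cell of 13947 UMIs held 31 UMIs of Ighg2b and 6 of Ighg3 but none of Ighm or Ighd, and a cell of 8172 UMIs held 17 of Ighg3 and no other heavy chain UMI. Absence of Ighm was itself rare. The 1 neonatal cell without an Ighm UMI had no switched UMI either, while 6 of the 8 adult cells without one did.

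Most cells that carried a switched gene also held Ighm. Of the 20 adult carriers, 13 also had at least 10 Ighm UMIs and were led by Ighm in 12 cases. These 13 were deep, with a median of 28467 UMIs and a range of 10042 to 65862, while the 7 with fewer than 10 Ighm UMIs had a median of 8172. Depth thus moved with the presence of both genes, and the part of droplets with 2 cells was not tested. Whether the carriers had switched was not tested either. Examples were a cell of 65862 UMIs with 229 of Ighm and 23 of Ighg3, and the highest Igha cell, with 54599 UMIs, 182 of Ighm and 131 of Igha. One adult cell carried 2 switched genes, with 38 UMIs of Ighg3 and 29 of Ighg2b beside 465 of Ighm.

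Ighg3 and Ighg2b were also the switched pair seen together most often at 1 or more UMIs, in 16 adult cells, which is 16.2% of the 99 with Ighg3 and 27.6% of the 58 with Ighg2b. Ighg2b and Ighg2c met in 10 cells, 17.2 and 17.5% of each. No neonatal cell held UMIs of 2 switched genes. Both adult Ighg1 cells also held Ighg3 and Ighg2b UMIs, at 1 of Ighg3 each and 6 and 1 of Ighg2b.

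Jchain was concentrated in a handful of cells. Its level was 84.6 CPM (1388 UMIs) in the neonatal and 114 CPM (3955 UMIs) in the adult library, a log2 ratio of 0.43 (0.34 to 0.52). Carriers numbered 3 neonatal and 8 adult cells and held 95.2 and 96.4% of the UMIs. In the remaining cells the level was 4.11 and 4.10 CPM, while free RNA held Jchain at 21.1 and 151 CPM. These cells held 67 neonatal and 141 adult Jchain UMIs. If each cell held as many as a nearly empty droplet, 2.45 and 50.3 would be found. The highest 2 neonatal cells held 775 and 531 Jchain UMIs and lay at shared barcodes, where the adult library held 759 and 1008 UMIs in all against 38880 and 45515 in the neonatal library. Without the shared barcodes the log2 ratio was 4.96, because 57 neonatal and 3933 adult Jchain UMIs were left. The adult cells with the most Jchain UMIs had 303 to 338 UMIs at the same barcodes in the neonatal library. That is under the limit of 500, so they were kept while the neonatal cells were left out. This ratio therefore depends on where the limit falls.

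**Figure D5:**
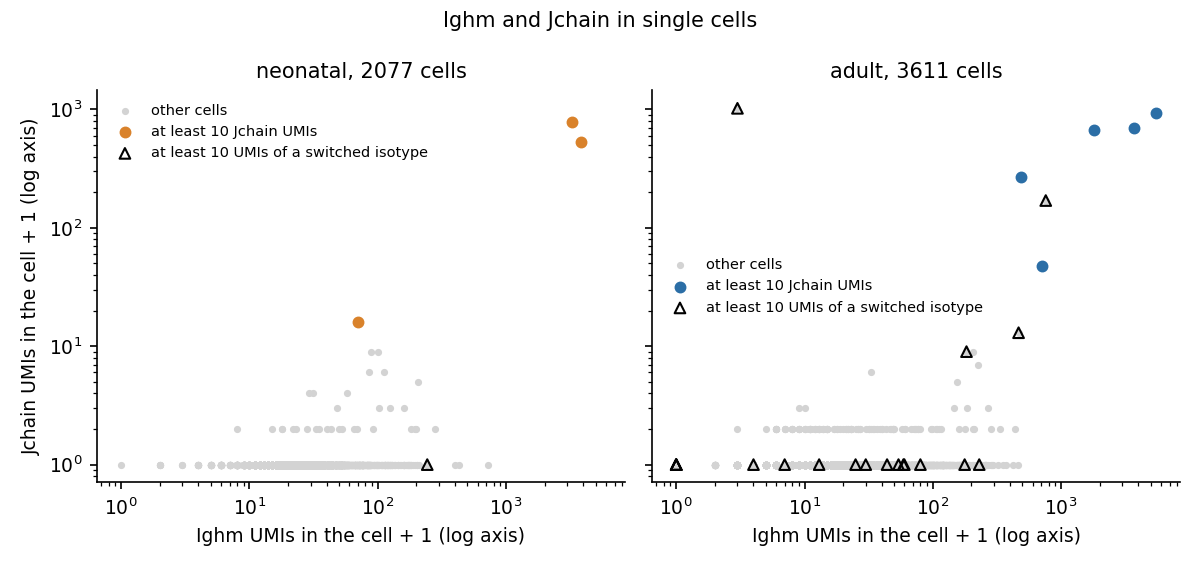
Jchain UMIs against Ighm UMIs of each cell, both plus 1 (log axes), for 2077 neonatal and 3611 adult cells. Filled circles are cells with at least 10 Jchain UMIs and fewer than 10 UMIs of every switched gene. Open triangles are cells with at least 10 UMIs of a switched gene, whatever their Jchain count. The cells high in Jchain are also high in Ighm, except for 1 adult cell with 1021 Jchain and 2 Ighm UMIs, which holds 3271 UMIs of Ighg2c.

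All 3 neonatal and 7 of the 8 adult Jchain carriers were led by Ighm. The highest Ighm cell of the adult library gave 5466 of its 26199 UMIs (20.9%) to Ighm and 931 to Jchain, and 2 more adult cells held 3718 and 1792 Ighm UMIs. In the neonatal library the highest 2 held 3807 and 3265 Ighm UMIs, 8.36 and 8.40% of all their UMIs. All 11 plasma cell genes of the marker list, among them Sdc1 (CD138) and the transcription factors Prdm1 and Xbp1, had UMIs in these 2 neonatal and 3 adult cells. Other cells among the deepest 10% of each library had a median of 4 (neonatal) and 5 (adult) of the 11, and at most 8 and 9. Sdc1 had between 1 and 6 UMIs in each of the 5 cells with all 11, and 108 neonatal and 198 adult UMIs over all cells. These 5 cells held at most 5 Ighd UMIs each. The eighth adult carrier was the Ighg2c cell, which gave 3271 of its 27230 UMIs (12.01%) to Ighg2c and had 1021 Jchain and 2 Ighm UMIs. It had UMIs of 9 of the 11 genes, as many as the highest of the other deep adult cells, and none of Prdm1.

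Light chains divided these cells further. Igkc held more UMIs than any of Iglc1, Iglc2 and Iglc3 in 10 of the 11 Jchain carriers, with 8249 in the Ighg2c cell and 9421 in the highest Ighm cell. The exception was an adult cell with 487 Ighm and 267 Jchain UMIs, which held 2858 UMIs of Iglc1 and 227 of Igkc. Of the 12 cells led by a switched gene, 11 likewise held more Igkc, between 18 and 8249 UMIs, and 1 Ighg2b cell held 85 of Iglc1 and 14 of Igkc. The Ighg2c cell had no UMI of Ms4a1 (CD20) and 12 of Cd79a, while the other 11 cells had between 2 and 27 UMIs of Ms4a1 and no Jchain.

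At the barcode of the Ighg2c cell the neonatal library held 338 UMIs in all, of which 43 were of the 9 genes. It was no cell there. At the barcodes of the 3 adult cells high in Ighm and Jchain, the neonatal library held between 303 and 335 UMIs, with 28 to 68 of the 9 genes.

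These few cells held a visible part of all Ighm. The Jchain carriers held 9.71% of the neonatal and 11.9% of the adult Ighm UMIs. Without them the log2 ratio was -0.50 for Ighm and 0.60 for Ighd, and the Ighd part was 10.5 and 19.98%, and the difference in balance was as large without them.

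The partners of the heavy chains lay mostly close to 0 or below. Of 6 receptor partner genes (Cd79a, Cd79b, Igkc, Iglc1, Iglc2 and Iglc3), none was at least 1.5-fold higher and 1 was at least 1.5-fold lower in the adult library (7.82 and 12.2% over all genes tested), Iglc1 with a log2 ratio of -0.87. Igkc, the kappa light chain, had a ratio of 0.03 and Cd79a of -0.02. Of 8 tested genes for processing of the Ighm transcript and its secretory form, 0 were higher and 1 was lower. The lower one was Irf4, a factor of activation and plasma cell differentiation, at -1.50. Zfp318 had a ratio of 0.53, Prdm1 of 0.57 and Ell2, an elongation factor that favours the secretory end, of 0.43. The list medians were -0.36 and -0.07, against -0.13 over all genes tested.

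Genes of class switching were present at low levels in both libraries. Of 15 genes reported here, 2 were at least 1.5-fold higher in the adult library (Exo1 and Xrcc5) and 4 lower (Apex1, Lig4, Dclre1c and Xrcc6), with a median log2 ratio of -0.04. Over all genes tested, 7.82% were higher and 12.2% lower by that fold, and nothing particular is read from lists of this size. Of 10 factors known to open or induce switched genes, Tbx21, which directs switching to IgG2c, was higher, with 0 neonatal and 57 adult UMIs. Batf (-1.08) and Tgfbr1 (-0.85) were lower. Of 6 tested genes of antibody receptors and their relatives, the IgE receptor Fcer2a was higher (0.71) and Fcrla lower (-0.78). Fcmr, the IgM receptor, had a ratio of 0.18.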

How the data were processed

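Single-cell 3′ libraries from 2 pools of sorted heart B cells were analysed. The authors aligned the reads to mm10 and deposited, per the file headers from Cell Ranger 3.0.2, unfiltered tables of raw UMI counts per gene and barcode, 1 table for each library. The surface antibody counts of the study were not used here. Droplets with at least 2000 gene UMIs, at most 10% mt- UMIs and a Cd79a UMI were kept. The sort gate excluded doublets and no doublet caller was run. Levels are counts summed over cells per 1e6 gene UMIs (CPM), with exact Poisson, conditional binomial or Clopper-Pearson 95% intervals. Cells are not replicates, so no test between the libraries was made. UMIs of near-empty droplets (ranks 45000 to 90000) gave the free RNA. Thinning drew 2000 UMIs per cell without replacement. Named genes were the 9 members, the fixed lists and the 5 genes correlating best with Ighm and with Ighd; the example cells were chosen after their values were seen. The members and lists were chosen with earlier results of these data known. Positions and sequences came from the GENCODE annotation of GRCm38, which held 30934 (99.6%) of the gene identifiers of the tables. Python 3.11.15, numpy 2.4.6 and scipy 1.17.1 were used, and the ratios and thinning were tested on simulated data. The simulated counts were drawn independently, so they cannot show how the intervals hold for UMIs that lie together in a few cells. Alternatives changed the cell filters, depth, scaling and the cells left out. Of the class switch list, 1 gene is not reported here.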

Additional observations from a re-analysis of the deposited data

Results flagged for a closer look

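These values lie in droplets that the comparisons left out, each above the 3 UMIs that a count of 0 allows. Neonatal droplets with at least 2000 gene UMIs but over 10% mitochondrial UMIs (416 droplets) held 7 UMIs of switched genes, 4 of Ighg3, 2 of Ighg2b and 1 of Igha, with at most 2 in a droplet. The matching 505 adult droplets held 43 such UMIs in 28 droplets, and 1 of them carried Ighg2b, with 11 UMIs. Adult droplets of 500 to under 2000 gene UMIs (1567 droplets) held 20 switched UMIs, each in a droplet of its own and 13 of them of Ighg2c. These droplets include 2 with at least 10 Jchain UMIs. The barcodes of the 2 neonatal cells highest in Jchain held 759 and 1008 UMIs in the adult library, within this range. Of those UMIs, 64 and 101 were of the 9 genes. Whether these are the same 2 droplets was not tested.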

How the results depend on the processing

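The direction of the Ighm and Ighd ratios was the same under all alternatives but 1, and the adult Ighd part and switched share stayed above the neonatal ones. In cells with fewer than 10 Ighm UMIs the Ighm log2 ratio was 0.12 (0.03 to 0.22). That set is chosen by the gene itself and leaves out 92.8% of neonatal and 71.4% of adult cells. In cells with fewer than 10 Ighd UMIs the Ighd ratio was 0.50. The Ighm log2 ratio (-0.47) was -0.39 with a minimum set from the 99th percentile of the top 3000 droplets, divided by 10, -0.45 with 20% and -0.49 with 5% mitochondrial UMIs allowed, -0.32 without shared barcodes, -0.34 without the droplets above the 95th percentile of UMIs, -0.55 in male cells, -0.33 with median-of-ratios scaling and -0.59 as a mean over cells. In the same order, leaving out 20% and male cells, where it changed by less than its interval, the Ighd ratio (0.60) was 0.46, 1.03, 0.52, 0.49, 0.73 and 0.64. The Ighd part (9.54 and 18.0%) was 15.9% in the adult library with the percentile minimum, 9.75% in the neonatal with 20%, 1.89 and 5.21% with 5%, 11.1 and 18.2% without shared barcodes, 11.4 and 18.6% without the deepest droplets, 8.87% in neonatal male cells and 13.3 and 25.4% as a mean over cells. The 5% limit kept 60 neonatal and 156 adult cells. The switched share (0.674 and 2.24%) was 3.23% in the adult library with the percentile minimum, 0 and 4.49% with 5%, 0.337 and 1.52% at 1000 UMIs per cell, 2.31 and 8.72% as sequenced, 0 and 0.471% at 2 or more UMIs and 0 and 0.0277% at 10 or more. Chosen after seeing the data, cells of 4000 to 6000 UMIs gave ratios of -0.81 and 0.67 and Ighd parts of 12.1 and 27.8%, and cells without the Jchain carriers gave -0.50 for Ighm and parts of 10.5 and 19.98%. The Jchain ratio (0.43) was -0.0031 without its carriers. Of the alternatives to the Ighm and Ighd ratios, Ighd parts and switched shares, 31 lay within the interval of the value reported and 43 outside it. The ratios in cells with fewer than 10 UMIs of Ighm or Ighd are not in these counts. No paired analysis was possible because each age has 1 library. Depth limits a gene at 0 to under 0.183 CPM in the neonatal cells.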
